A study of Glycine max with 8 samples.

Results

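Flavonoids are plant phenolics built on a shared skeleton, and several enzymes compete for the same intermediates at its branch points. Flavone synthase II turns flavanones into flavones, while flavanone 3-hydroxylase turns them into dihydroflavonols. Dihydroflavonols are then drawn into flavonols by flavonol synthase, or towards anthocyanins by dihydroflavonol 4-reductase (DFR) and anthocyanidin synthase. The B-ring hydroxylases F3'H and F3'5'H set which pigment or flavonol series is made, and in soybean their loci T and W1 are classical loci of pubescence and flower colour, as Wm, the flavonol synthase locus, is of flower colour and leaf flavonols.

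A set of 10 soybean (Glycine max) genes of these branches, given by ID, was looked up in the deposited table of 31785 genes, and 3 of the 10 were listed there and analysed. These were F3'H (T, Glyma.06G202300.Wm82.a4.v1, chromosome 6), flavonol synthase (Wm, Glyma.13G082300.Wm82.a4.v1, chromosome 13) and one of 2 flavone synthases II (Glyma.12G067000.Wm82.a4.v1, chromosome 12). The other 7 were not listed and were not analysed here. They are F3'5'H (W1, Glyma.13G072100.Wm82.a4.v1), DFR1 (Glyma.14G072700.Wm82.a4.v1), DFR2 (Glyma.17G252200.Wm82.a4.v1), the anthocyanidin synthases Glyma.01G214200.Wm82.a4.v1 and Glyma.11G027700.Wm82.a4.v1, flavanone 3-hydroxylase (Glyma.02G048400.Wm82.a4.v1) and the other flavone synthase II (Glyma.12G067100.Wm82.a4.v1). The values therefore describe 1 B-ring hydroxylase, 1 flavonol gene and 1 flavone gene, and no gene that acts only on the anthocyanin branch.

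The samples were mature leaves of the line labelled OX5 (4 libraries) and of wild type (WT, 4 libraries), all from plants with sufficient phosphorus at R6, the full-seed stage. The labels do not give the gene altered in OX5, its promoter or the number of independent transformants. Nor do they state that each library is a plant of its own, and the p-values speak only of the spread among these libraries, part of which may be technical. Levels are the authors' FPKM, in which the fragments of a gene are divided by its length and by library depth, so that genes can be compared in level. Reads recovered from the FPKM steps came to 17536942 to 19139496 per OX5 library and 18768431 to 19156866 per WT library. The fewest of any listed gene were 22, summed over the 8 libraries. Whether the 7 genes not listed had few or no reads was not tested.

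Libraries of 1 line were not all alike. OX5 replicates 1 and 2 stood at 69.8 and 88.6 on the first principal component of all tested genes, and OX5 replicates 3 and 4 at -12.6 and -19.8, with WT between -40.5 and -23.2. WT was spread on the third component, with replicate 1 at 55.4, replicate 3 at 3.8, replicate 2 at -16.2 and replicate 4 at -56.5, while OX5 lay between 1.2 and 4.5. These positions are given again beside the genes that move with them. Their part in the differences was not tested, and whether OX5 holds 4 independent samples is not known.

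The 3 genes differed from each other in level. F3'H was the highest of the 3 in all 8 libraries, with a mean over them of 14.7 FPKM, above the means of 71.5% of the genes tested. Flavonol synthase and flavone synthase II were low, with means of 2.29 and 2.12 FPKM, above 21.9% and 20.4% of the genes tested. Between these low genes there was no fixed order, since flavonol synthase had the higher value in 3 libraries and flavone synthase II in 5.

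None of the 3 passed the test of OX5 against WT. By limma, with a trend in the variance and Benjamini-Hochberg adjustment over the 30424 genes that averaged 0.5 FPKM or more, 0 of 3 had an adjusted p under 0.05. Of all genes tested, 2.40% had one, 1.38% with OX5 higher and 1.01% with OX5 lower. This background moved with the processing, since the 729 calls became 58 to 761 with 1 library left out, and the share of rises among calls was 57.8% as deposited but 43.9% with every library scaled to sum to 1000000. At an unadjusted p under 0.05 there was 1 of 3, where 21.7% of all genes tested were under it. Limma-voom on the recovered reads likewise called 0 of 3 (1 of 3 at an unadjusted p under 0.05), where it called 1.43% of all genes. The median log2 fold change was -0.28 over the 3 genes and 0.04 over all genes tested, with 1 gene positive and 2 negative.

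F3'H, the enzyme that hydroxylates the B-ring and so opens the way to quercetin and cyanidin compounds, was the 1 gene of the 3 whose lines did not overlap. Its level was 13.8, 19.9, 18.5 and 25.9 FPKM in OX5 replicates 1 to 4, against 10.97, 12.5, 8.83 and 6.85 FPKM in WT replicates 1 to 4. Every OX5 library was above every WT library, although the lowest OX5 library and the highest WT library lay close together. Such a separation in either direction was seen in 14.2% of the genes tested, with OX5 higher in 8.87% and lower in 5.35%. The means were 19.5 ± 4.998 FPKM in OX5 and 9.80 ± 2.49 FPKM in WT (SD, n = 4 each), a ratio of 1.99. In whole leaves, a difference in the cells that make a transcript and one in its amount per cell cannot be told apart.

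On the scale of log2(FPKM + 1), where changes of low genes come out too small, the F3'H difference was 0.92 (SE 0.22, 95% interval 0.43 to 1.42). Its unadjusted limma p was 0.00226 and its adjusted p 0.0614, just outside the threshold. In 1 of the 21 alternative settings, that with library quality weights, it passed, with a log2 fold change of 0.77 and a limma adjusted p of 0.0117. That fit called 31.2% of all genes. In the 8 fits that each left out 1 library, the log2 fold change ran from 0.78 to 1.07 and the adjusted p from 0.0839 to 0.177.

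The F3'H values rest on 251 or more reads each, 480, 730, 619 and 870 in OX5 replicates 1 to 4 and 397, 454, 317 and 251 in WT replicates 1 to 4. The exact 95% Poisson intervals, which cover counting error only, were 12.6 to 15.1 FPKM in OX5 replicate 1 and 11.4 to 13.8 FPKM in WT replicate 2, and thus overlapped at the boundary of the lines. The highest F3'H value was in OX5 replicate 4, whose summed FPKM over all genes was 623720, above the 594118 to 597668 of the other OX5 libraries. With every library rescaled to a sum of 1000000, F3'H was at 23.1 to 41.6 in OX5 and at 11.98 to 21.7 in WT, and the lines still did not overlap. The tested loci before and after F3'H in ID order on chromosome 6 were not called.

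**Figure D1:**
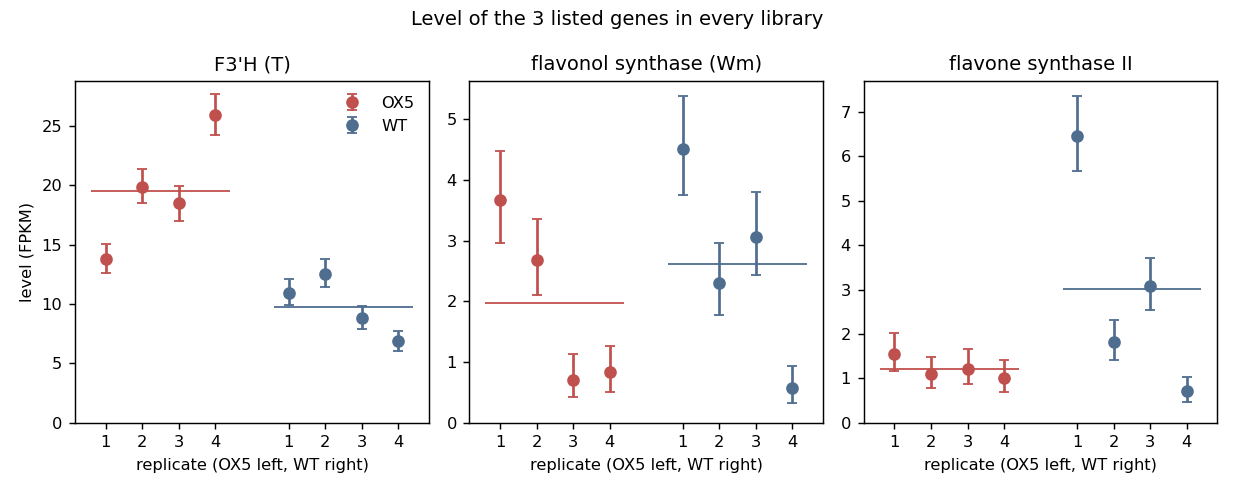
Level in FPKM (vertical axes, each from 0) of F3'H, flavonol synthase and flavone synthase II in each replicate of OX5 (red, left) and WT (blue, right), with bars for the exact 95% Poisson interval of the reads and a line at the mean of each line. F3'H lies between 13.8 and 25.9 FPKM in OX5 and between 6.85 and 12.5 FPKM in WT, while the other genes overlap between the lines.

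Flavonol synthase, which oxidises dihydroflavonols to flavonols such as kaempferol and quercetin, varied more within the lines than between them. Its level was 3.67, 2.68, 0.712 and 0.831 FPKM in OX5 replicates 1 to 4, against 4.51, 2.31, 3.07 and 0.579 FPKM in WT replicates 1 to 4. OX5 replicates 1 and 2 lay in the middle and upper part of the WT range, OX5 replicates 3 and 4 near its lower end, and WT replicate 4 was the lowest of all. The means were 1.97 ± 1.45 FPKM in OX5 and 2.62 ± 1.64 FPKM in WT (SD, n = 4 each). On the log2 scale the difference was -0.28 (SE 0.44) with a 95% interval of -1.29 to 0.73, wide enough to hold changes in either direction (limma adjusted p = 0.752).

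Within OX5 the highest flavonol synthase value was 5.15 times the lowest, and within WT 7.78 times. The SD of its log2(FPKM + 1) values was 0.72 in OX5 and 0.77 in WT, where the medians over all genes tested were 0.26 and 0.21. Only 7.24% of the genes tested had a larger SD in OX5, and 3.52% in WT. OX5 replicates 1 and 3 had 96 and 18 reads, with Poisson intervals of 2.97 to 4.48 and 0.422 to 1.13 FPKM, and WT replicates 1 and 4 had 123 and 16 reads, with intervals of 3.75 to 5.38 and 0.331 to 0.941 FPKM. Within each line these intervals, which cover counting error only, did not overlap, and the source of the spread between libraries was not tested.

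The split of flavonol synthase within OX5 followed the library pairs of the first principal component. Both of OX5 replicates 1 and 2 were above both of replicates 3 and 4, an order shared by 46.2% of all genes tested. With OX5 replicates 1 and 2 both left out, its log2 difference was -0.89 (SE 0.45) and its limma adjusted p 0.312. With OX5 replicates 3 and 4 both left out they were 0.33 (SE 0.46) and 0.645. The sign of the flavonol synthase difference thus depended on which pair of OX5 libraries was used, and neither value passed the test.

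Flavone synthase II, a cytochrome P450 that makes flavones such as apigenin from flavanones, had a narrower range in OX5 than in WT. Its level was 1.55, 1.09, 1.22 and 1.01 FPKM in OX5 replicates 1 to 4, against 6.46, 1.82, 3.09 and 0.709 FPKM in WT replicates 1 to 4. The reads behind these values numbered 34 to 54 in OX5 and 26 to 234 in WT. All OX5 values lay below WT replicates 1, 2 and 3 and above WT replicate 4, so the lines overlapped through 1 WT library. The means were 1.22 ± 0.239 FPKM in OX5 and 3.02 ± 2.49 FPKM in WT (SD, n = 4 each), a ratio of 0.404.

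The log2 fold change of flavone synthase II was -0.66 (SE 0.39, 95% interval -1.53 to 0.22, limma adjusted p = 0.359). It shrank to -0.29 without WT replicate 1, the highest library (limma adjusted p = 0.604), and widened to -0.9985 without WT replicate 4, the lowest (limma adjusted p = 0.137). The highest WT value was 9.11 times the lowest, whereas the highest OX5 value was 1.53 times the lowest. The SD of the log2(FPKM + 1) values was 0.15 in OX5 and 0.90 in WT, and 78.7% of the genes tested had a larger SD in OX5 but 1.95% in WT. That scale compresses the spread of low genes. On log2 FPKM, over the 30120 tested genes above 0 in every library, its SD was 0.27 in OX5 and 1.34 in WT, where the medians were 0.33 and 0.27. There 60.2% of genes had a larger SD in OX5 and 1.71% in WT, so the gene was close to the median gene in OX5 and among the more variable ones in WT. The difference in spread between the lines was not tested.

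RefSeq lists FNSII-1 and FNSII-2 both on chromosome 12. They are next to each other in its list, whose order need not be that of the chromosome, and their coordinates were not used here. No source used here says how reads shared between such copies were counted. How far the flavone synthase II values hold reads of the other copy, or lack reads that match both, was not tested. Of the 6 tested loci next to the 3 genes in ID order, 0 were called. Around all 10 IDs there were 18 different neighbouring tested loci, of which 1 was called and 3 had an unadjusted limma p under 0.05. Of all genes tested, 2.40% were called and 21.7% had such an unadjusted p.

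Flavonol synthase and flavone synthase II had the same order of libraries within WT, with replicate 1 highest, then 3, 2 and 4. That is also the order of the WT libraries on the third principal component, and 9.53% of all genes tested had it. F3'H had another order in WT, with replicate 2 above replicate 1, although replicate 4 was the lowest for all 3 genes. In OX5 the orders differed as well, since flavonol synthase and flavone synthase II were highest in replicate 1, where F3'H was lowest. With 4 libraries per line, no correlation between the genes was computed.

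The balance of the 3 genes was described as each gene's share of their summed FPKM. F3'H made up 72.6%, 84.1%, 90.5% and 93.4% in OX5 replicates 1 to 4, against 49.997%, 75.2%, 58.9% and 84.2% in WT replicates 1 to 4. The mean share was 85.1% ± 9.23 in OX5 and 67.1% ± 15.5 in WT (SD, n = 4 each), and the ranges overlapped. Flavonol synthase had a share of 2.99% to 19.3% in OX5 and 7.12% to 20.5% in WT. Flavone synthase II had one of 3.65% to 8.16% in OX5 and 8.71% to 29.5% in WT, and here the lines did not overlap, with the nearest libraries close together. The level of flavone synthase II itself overlapped between the lines, and a share of this kind has no background over all genes. No test was run on these shares, and since the sum is mostly F3'H, a low share of the other genes partly restates a high F3'H level.

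**Figure D2:**
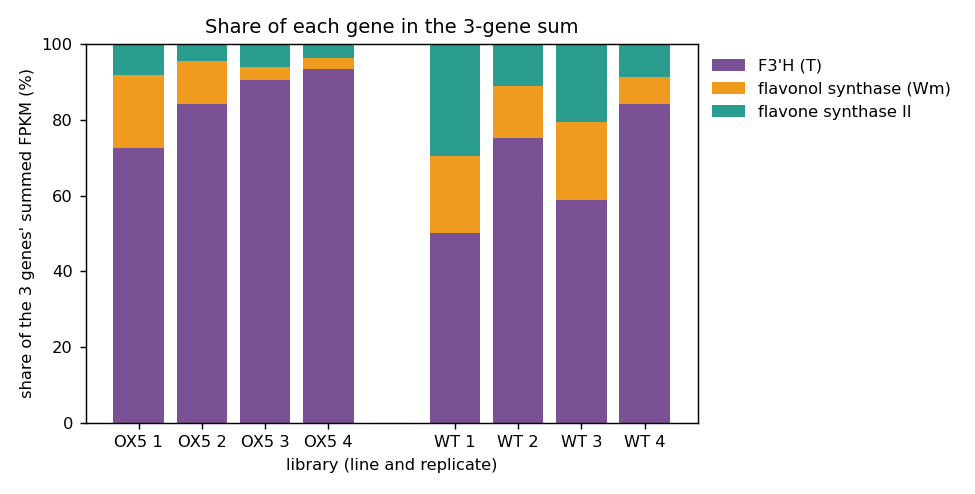
Share (vertical axis, percent) of F3'H, flavonol synthase and flavone synthase II in the summed FPKM of the 3 genes, 1 stacked bar per library with OX5 left and WT right. The F3'H share runs from 72.6% to 93.4% in OX5 and from 49.997% to 84.2% in WT, and the flavone synthase II share is widest in WT replicate 1, at 29.5%.

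As ratios of levels within a library, F3'H was 3.77, 7.44, 25.9 and 31.2 times flavonol synthase in OX5 replicates 1 to 4, against 2.43, 5.43, 2.88 and 11.8 times in WT replicates 1 to 4. The OX5 pairs were far apart in this ratio, and replicates 1 and 2 lay within the WT range. F3'H was 8.89, 18.3, 15.1 and 25.6 times flavone synthase II in OX5 replicates 1 to 4, against 1.70, 6.88, 2.86 and 9.66 times in WT replicates 1 to 4. Only WT replicate 4 and OX5 replicate 1 overlapped there. Flavonol synthase was 2.36 and 2.46 times flavone synthase II in OX5 replicates 1 and 2 and 0.583 and 0.820 times in OX5 replicates 3 and 4, against 0.698 to 1.27 times in WT.

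Flavone synthase II had the widest range of the 3 genes over the 8 libraries, 2.13 on the log2(FPKM + 1) scale, and the 2 genes with the closest centred profile on that scale were Glyma.13G372000.Wm82.a4.v1 on chromosome 13 and Glyma.08G220200.Wm82.a4.v1 on chromosome 8. Their root mean square difference from it over the 8 libraries was 0.14 each, where the median over 30423 genes was 0.72. They were picked as the nearest of these genes, so a value below the median follows from the choice. The first of them, Glyma.13G372000.Wm82.a4.v1, was at 87.0, 60.5, 70.1 and 62.8 FPKM in OX5 replicates 1 to 4, against 252, 84.2, 161 and 48.7 FPKM in WT replicates 1 to 4. Glyma.08G220200.Wm82.a4.v1 had 74.3 to 82.8 FPKM in OX5 and 66.3 to 224 FPKM in WT. Both were much more abundant than flavone synthase II and were not called (limma adjusted p = 0.387 and 0.269). Like it, both were highest in WT replicate 1 and lowest in WT replicate 4, the profile on which they were picked. The scale used makes changes of low genes too small. In FPKM the highest WT value of flavone synthase II was 9.11 times the lowest, a wider spread than in either of these genes. The files do not pair these IDs with names.

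**Figure D3:**
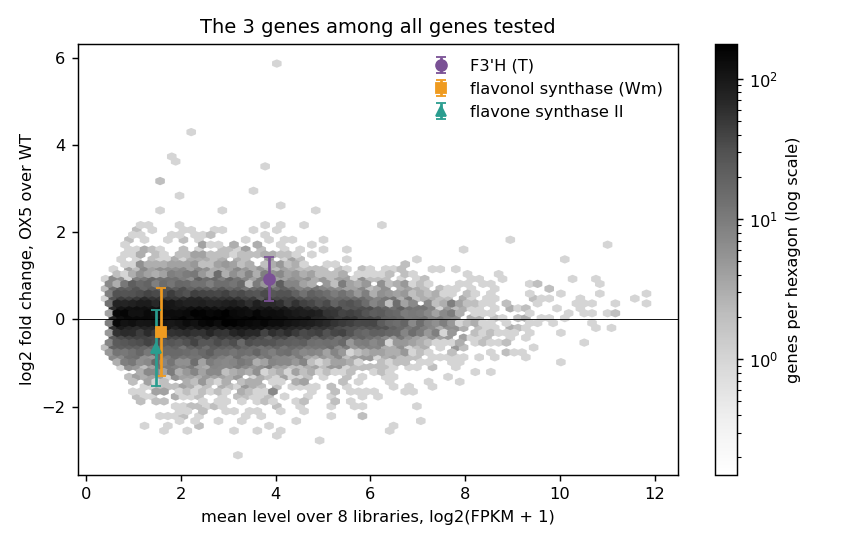
Log2 fold change of OX5 over WT (vertical axis) against the mean level over the 8 libraries in log2(FPKM + 1) (horizontal axis) for all 30424 genes tested, as hexagons shaded by the number of genes, with the 3 genes as coloured symbols and their 95% intervals. The F3'H interval, 0.43 to 1.42, lies above 0, and those of flavonol synthase and flavone synthase II include 0.

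**Figure D4:**
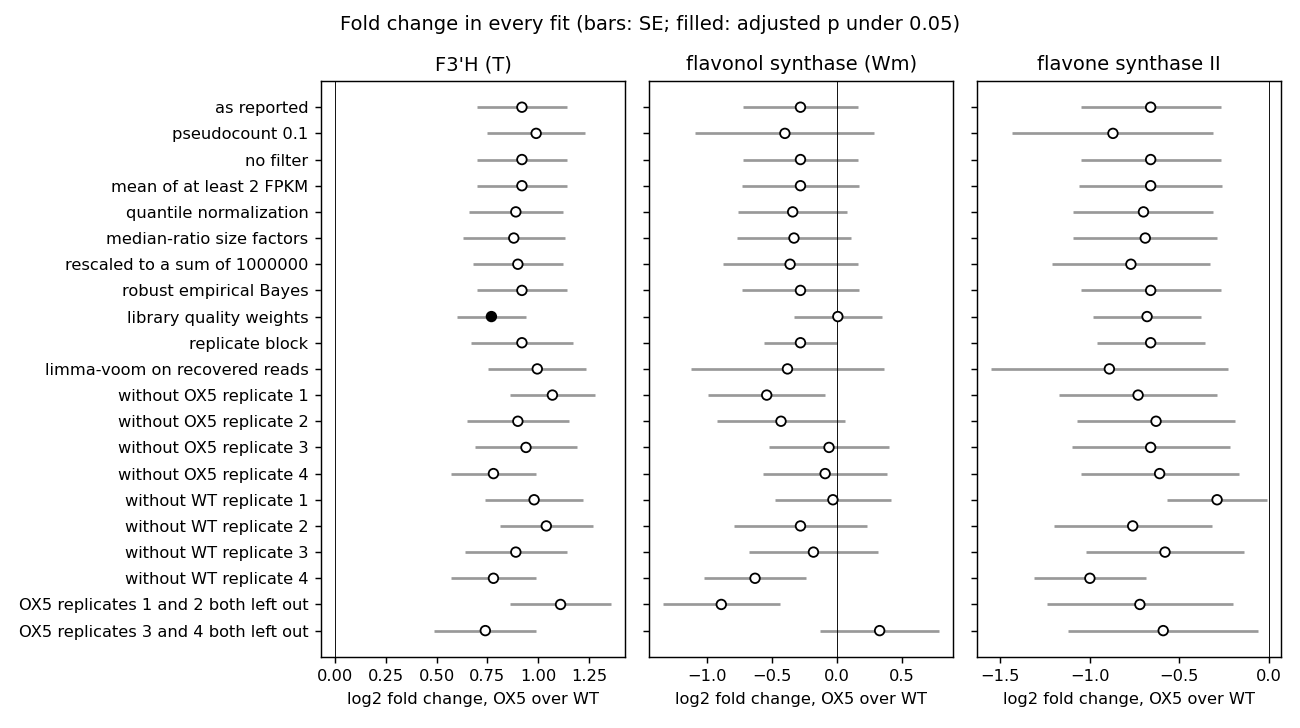
Log2 fold change of OX5 over WT (horizontal axes, with SE bars) for each of the 3 genes in the fit as reported and in the alternative fits named on the vertical axis, filled where the limma adjusted p is under 0.05. F3'H is above 0 in every fit shown and filled once, at 0.77 with library quality weights, while flavonol synthase lies on both sides of 0, from -0.89 to 0.33, and flavone synthase II runs from -0.9985 to -0.29.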

How the data were processed

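Total leaf RNA was sequenced in 8 libraries, 4 per line. The deposited table holds FPKM computed by the authors, 1 column per library. Tools in the submitters' processing notes, with no step attached, are HISAT2 2.1.0, HTSeq 0.6.0, Bowtie2 2.2.3, TopHat2 and CASAVA. The sources used here do not give the genome build, strand setting or treatment of shared reads. A single row naming no gene was left out.

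Members and lists were chosen with earlier results of these data known. Members were found by ID; names come from the rule that chose them. RefSeq (Glycine_max_v4.0) holds all 10 gene symbols on the same chromosomes but 0 IDs of this form, so description lists, leaf markers, sequences and coordinates were not used. The named genes were all members, their neighbours in ID order (by calls) and the 2 loci with the closest profile.

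The test was limma 3.58.1 (R 4.3.3) on log2(FPKM + 1), mean of at least 0.5 FPKM, Benjamini-Hochberg over all 30424 genes, threshold 0.05. It was tested on simulated data, with libraries drawn independently and so without the OX5 library pairs. Whole reads were recovered from the FPKM steps for 100% of genes (within 0.1 read, 99th percentile of the distance 0.0076). With values changed by up to 2%, 1.39% of 2805 genes were solved. That check used only genes of lower counts and a shorter search, so it does not cover high counts. No 2 libraries agreed within counting noise. Intervals of reads are exact Poisson. Alternatives changed the pseudocount, filter, scaling, variance model, threshold, block and libraries. The 3-gene shares were not planned, and their alternatives were chosen after seeing the data. Python 3.11.15, numpy 2.4.6, scipy 1.17.1, pandas 2.3.3, numba 0.67.0 and matplotlib 3.10.9 were used.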

Additional observations from a re-analysis of the deposited data

Results flagged for a closer look

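The summed FPKM of OX5 replicate 4 was 623720, set apart from the 594118 to 597668 of the other OX5 libraries. It was the 1 lone extreme value among 12 groups of 4 values examined. The check flags about 1 in 20 groups of independent normal values. The 12 groups come from the same libraries, and whether chance gave this flag was not tested. No level of the 3 genes and no F3'H share stood apart in this way within a line.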

How the results depend on the processing

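F3'H stayed above 0 in all 21 alternatives (log2 fold change 0.74 to 1.11, limma adjusted p 0.0117 to 0.177) and passed in 1, library quality weights, at 0.77. The count of members called was then 1 and otherwise 0. Among the 21, the setting of an adjusted p under 0.01 repeats the main fit with a stricter threshold. Flavone synthase II stayed below 0 and uncalled in all 21 (-0.9985 to -0.29). Flavonol synthase was uncalled in all 21 and was positive in 2, at 0.0079 with library quality weights and at 0.33 with OX5 replicates 3 and 4 both left out. Leaving out 1 library gave 0.78 to 1.07 for F3'H, -0.63 to -0.03 for flavonol synthase and -0.9985 to -0.29 for flavone synthase II. Over all genes, 729 calls became 9504 with library quality weights, 435 with limma-voom, 57 at an adjusted p under 0.01, 242 with OX5 replicates 1 and 2 both left out, 5503 with 3 and 4 both left out, and 58 to 761 with 1 library left out. The share of rises was 57.8% as deposited and 43.9% after rescaling to a sum of 1000000. For none of these differences was the cause tested. The SDs within lines on log2 FPKM, with no pseudocount, were chosen after seeing the data.

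A replicate block called 56 genes over all, none of them among the 3. With it, the SE of F3'H was 0.25, against 0.22 in the main fit, and its limma adjusted p 0.133. The SE fell from 0.44 to 0.28 for flavonol synthase and from 0.39 to 0.30 for flavone synthase II. Their limma adjusted p were 0.613 and 0.292. Deviations of same-numbered libraries correlated at -0.06, 0.07, 0.13 and -0.06. The labels give these libraries only a shared number, and these values cannot tell whether they share a harvest or batch. The planned shares between gene partners could not be computed, since in each at least 1 partner was not listed. The low genes had 16 to 234 reads per library, and how far counting error adds to their spread was not tested.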
